A study of Capra hircus with 3 samples.

Results

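Transcripts of 58 nuclear-encoded genes of the respiratory chain were followed through the cell types of goat liver. The genes were taken by name alone, as every row whose symbol starts with 1 of 17 family prefixes: NDUFA, NDUFB, NDUFC, NDUFS, NDUFV, SDHA, SDHB, SDHC, SDHD, UQCR, COX4I, COX5, COX6, COX7, COX8, ATP5F or ATP5M. No measured value entered this rule, which found 58 of 27271 rows, 50 for subunits and 8 for assembly factors. Subunits of these families that are not among the 58 were not analysed here. The livers came from female goats of 3 to 4 years. The Con library came from healthy goats fed the LRDS diet. The NASH library came from animals fed the HRDS diet that had non-alcoholic steatohepatitis, and the NASH-T library from animals fed the same HRDS diet that the series describes as tolerant to that disease. Each library was made from the mixed livers of 5 goats, so that 15 goats gave 3 libraries, the spread between animals cannot be told, and no test between conditions was possible. All livers were minced, digested with 0.25% trypsin and DNase at 37 °C for about 40 min with cells harvested every 20 min, strained at 40 µm and cleared of red blood cells, and were sequenced as 10x Genomics 3′ single-cell libraries.

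Of 7485 barcodes in Con, 8731 in NASH and 9375 in NASH-T, 7200, 8389 and 8914 were kept, with 23752171, 29059323 and 27005297 unique molecular identifiers (UMIs). The median per cell was 2392.5, 2472 and 2127.5 UMIs, and 20 to 23 barcodes were shared by each pair of libraries. The cells fell into 22 clusters, which were named from marker genes with the 58 genes left out of the clustering. Hepatocyte-like cells numbered 2904, 4082 and 3152 in Con, NASH and NASH-T, the order kept throughout. The hepatocyte name was given with 18 hepatocyte markers, so their level in these cells does not test it. They summed there to 20641, 24247 and 26277 CPM, a gene's UMIs per 1000000 UMIs of all genes in the class. Single markers varied, and the highest stood at 121%, 167% and 124% of its hepatocyte-like level in T cell-like cells. All 18 markers were above 0 UMIs in every library of the macrophage-, T cell-, endothelial- and stellate or fibroblast-like classes too, where they summed to 11.1% to 12.5%, 22.8% to 23.8%, 16.5% to 18.4% and 14.3% to 18.3% of the hepatocyte-like level. The part of such hepatocyte RNA in the levels of the 58 genes outside hepatocyte-like cells was not tested.

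The respiratory chain passes electrons from NADH, through complex I, or from succinate, through complex II, to ubiquinone, on through complex III and cytochrome c, and through complex IV to oxygen. Complexes I, III and IV pump protons across the inner mitochondrial membrane, and complex V, the ATP synthase, uses the returning protons to make ATP. Apart from complex II, each complex joins subunits from nuclear genes with a few made from mitochondrial DNA, and assembly factors build them without staying in the finished enzyme. Hepatocytes use the chain for fatty acid oxidation, urea synthesis and gluconeogenesis.

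The 58 genes had 105355 UMIs over all kept cells. Complex I, with 35 genes, held 66.4% of them, complex II with 6 genes 14.8%, complex III with 5 genes 10.3%, complex V with 3 genes 4.28% and complex IV with 9 genes 4.14%. These shares count UMIs that are not divided by transcript length, and levels are compared below only within a gene or within the same sum. They cover only part of each complex. Of the subunit names listed, 5 of 9 had a row for complex III and 9 of 20 for complex IV. For complex V, 3 of 6 names of the F1 part and 0 of 10 of the membrane part had a row. A sum called by its complex below holds only its genes among the 58. The 5 genes with most UMIs held 37.1% of the total. They were NDUFS4, an accessory subunit of the NADH-oxidising end of complex I (14363 UMIs), SDHAF4, an assembly factor that binds the flavin-carrying SDHA before it joins complex II (8798), NDUFAF5, a complex I assembly factor that modifies the core subunit NDUFS7 (6727), UQCRC2, a core protein of complex III (5454), and NDUFA10, an accessory subunit of the membrane arm of complex I (3700). At the other end, COX7B2 had 0 UMIs, COX6A2 had 1, COX6B2 had 8 and SDHAF1, an assembly factor for the iron-sulfur subunit of complex II, had 10. With 0 UMIs, 3 counts set the limit for COX7B2 in hepatocyte-like cells at 0.207, 0.151 and 0.197 CPM. Values below carry exact 95% intervals, Poisson for a level and conditional binomial for a ratio, which cover counting error only and leave out the spread between goats and between library preparations.

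The summed level of the 58 genes was much alike in the 9 cell classes described. In hepatocyte-like cells it was 1366 (1347 to 1385), 1258 (1242 to 1273) and 1309.8 (1292 to 1328) CPM, lowest in NASH, with 3 intervals that did not overlap. It was 1351, 1290.4 and 1339 CPM in macrophage-like, 1504, 1393 and 1481 in T cell-like, 1261, 1228 and 1304 in endothelial-like and 1161, 1274 and 1165 in stellate or fibroblast-like cells. The hepatocyte-like values overlapped the macrophage-like ones and lay below every T cell-like value. On average over the 3 libraries, the hepatocyte-like sum was 0.988 times the macrophage-like and 0.898 times the T cell-like one. With the 50 genes that take most UMIs left out of the totals, the first of these ratios turned to 1.02. The smaller of these 9 classes spread from 1230 CPM in NASH B cell-like cells to 1562 CPM in Con plasma cell-like cells. Mast cell or basophil-like cells, with 18, 24 and 15 cells, were left out. They had 2135, 1242 and 914 CPM, from 30, 26 and 17 UMIs. The median UMIs per cell differed between classes as well, from 3859.5 to 4178 in hepatocyte-like and 1032.5 to 1202 in T cell-like cells. In cells thinned to 1000 UMIs the hepatocyte-like sum was 0.939 times the T cell-like one.

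**Figure D1:**
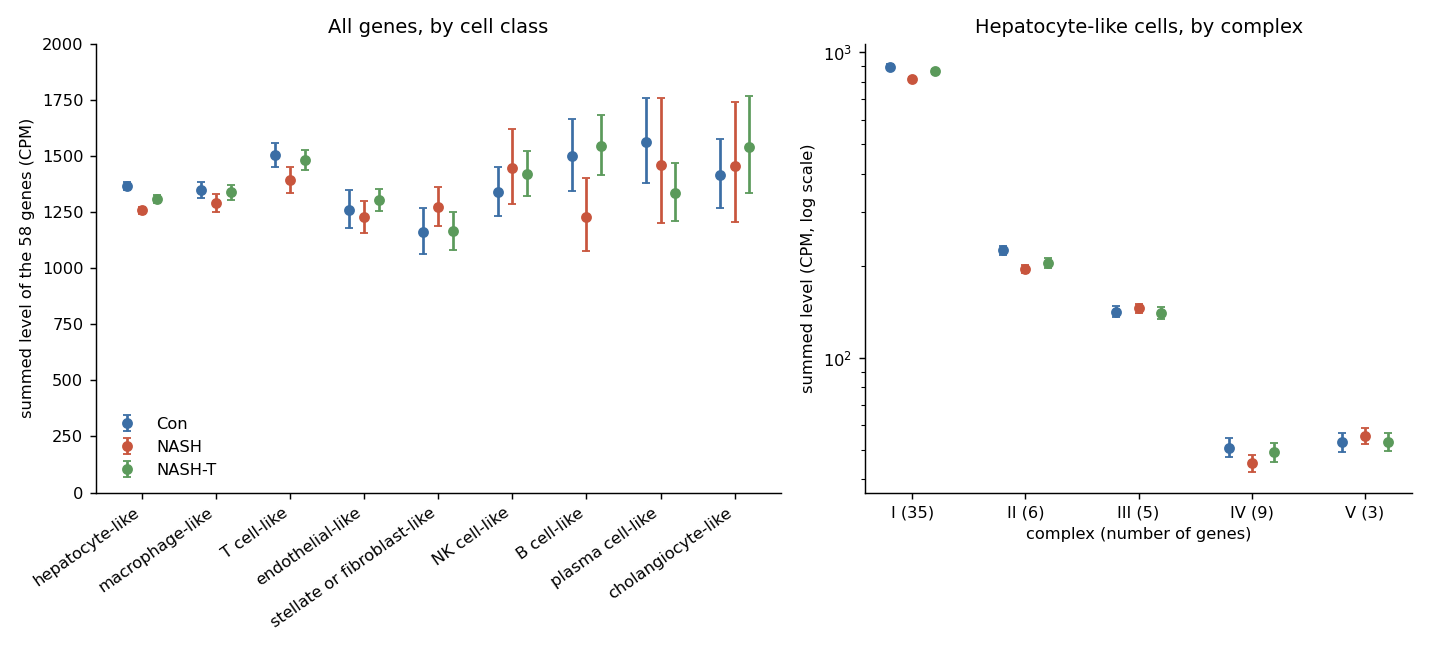
Left, summed level of the 58 genes in CPM (vertical axis, from 0) in 9 cell classes, with 1 point per library and its exact 95% Poisson interval. Right, the same for each complex in hepatocyte-like cells on a log axis. The sums lie between 1161 and 1562 CPM in these 9 classes, and in hepatocyte-like cells NASH is lowest for complexes I, II and IV but not for III and V.

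Single genes differed between classes more than their sum did. A gene was counted as higher in a class when its 3 library values all lay above the 3 of the other class and the mean was at least 1.5-fold higher. Classes were drawn from these same cells, so these counts are a description. Against macrophage-like cells, 5 of 51 measured genes were higher in hepatocyte-like cells, beside 31.0% of all measured genes, and 14 were lower, beside 34.5%. The higher ones were NDUFC2 (2.37-fold), UQCRQ (1.999-fold), NDUFA6 (1.93-fold), SDHAF4 (1.71-fold) and NDUFS4 (1.61-fold). They are 3 accessory subunits of complex I, 1 subunit of complex III and 1 assembly factor of complex II, and NDUFC2 and NDUFA6 were named after their values were seen. Against T cell-like cells, 2 of 51 were higher, beside 31.5%, and 17 lower, beside 38.3%. Against endothelial-like cells 9 of 51 were higher, beside 28.9%, and 5 lower, beside 29.8%. Against stellate or fibroblast-like cells 8 of 51 were higher, beside 31.7%, and 6 lower, beside 22.6%. NDUFC2, NDUFA6, SDHAF4 and NDUFS4 were higher than in macrophage-, endothelial- and stellate or fibroblast-like cells alike.

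Among the other classes, macrophage-like cells had 8 of 49 genes higher (24.3% of all genes) and 8 lower (29.6%) than T cell-like cells, and 9 of 47 higher (28.2%) and 1 lower (22.5%) than endothelial-like cells. Against stellate or fibroblast-like cells, macrophage-like cells had 11 of 47 higher (35.9%) and 0 lower (17.9%), T cell-like cells 6 of 44 higher (40.9%) and 1 lower (17.9%), and endothelial-like cells 2 of 23 higher (27.2%) and 0 lower (14.2%). T cell-like cells had 8 of 44 higher (32.9%) and 0 lower (21.2%) than endothelial-like cells. In each of these counts, the share of the 58 genes that differed was below the share among all measured genes.

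Of the complex I genes, NDUFS4 stood at 216, 189.7 and 199 CPM in hepatocyte-like cells, 186, 174 and 177 in T cell-like, 137, 126 and 111 in macrophage-like, 136, 130.5 and 124 in endothelial-like and 132, 126 and 131 in stellate or fibroblast-like cells. The hepatocyte-like values were the highest of these 5 classes, the T cell-like ones came next, and the other 3 classes overlapped one another. NDUFA10 had its highest mean in B cell-like cells, with 114, 102 and 97.7 CPM, and its lowest in hepatocyte-like cells, with 39.4, 35.9 and 39.8 CPM, among the 7 classes with at least 50 cells in every library. NDUFAF5 stood at 142, 138 and 125 CPM in endothelial-like cells against 81.4, 71.2 and 79.0 in hepatocyte-like cells, with no overlap. NDUFB2, a small subunit of the membrane arm, had its highest mean in stellate or fibroblast-like cells (13.9, 7.47 and 6.22 CPM), where it rested on 4 to 6 UMIs per library, and stood at 3.80, 3.97 and 5.83 CPM in hepatocyte-like cells.

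Of the complex II genes, SDHAF4 stood at 142, 108 and 122 CPM in hepatocyte-like cells and 145, 109 and 120.0 in T cell-like cells, and these overlapped. Macrophage-like cells had 73.5, 73.9 and 70.7 CPM and endothelial-like cells 76.0, 68.4 and 63.6, all below them. SDHA, the flavin-carrying subunit that oxidises succinate, had its highest mean in macrophage-like cells (59.0, 42.8 and 53.6 CPM, against 30.5, 32.3 and 25.0 in hepatocyte-like cells), and so had SDHD, a membrane anchor of the same enzyme (10.6, 16.0 and 13.2 against 8.98, 8.35 and 8.85). SDHC, the other anchor, stood at 39.0, 40.5 and 41.9 CPM in hepatocyte-like cells, above the macrophage-like 30.4, 30.8 and 36.5. SDHAF2, which helps to attach the flavin to SDHA, had its highest mean in B cell-like cells (13.1, 16.1 and 14.8 CPM), but from only 3, 3 and 5 UMIs, and its hepatocyte-like level was 4.42, 5.89 and 5.70 CPM. The succinate dehydrogenase genes thus did not keep one order across the classes.

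For complex III, UQCRC2 stood at 67.6, 71.9 and 62.5 CPM in hepatocyte-like and 78.3, 68.4 and 68.5 in macrophage-like cells, which overlapped. UQCRQ, a small subunit of the membrane part, was at 44.2, 45.3 and 51.6 CPM in hepatocyte-like and 23.7, 19.6 and 27.2 in macrophage-like cells, with no overlap. In complex IV, COX5B, a subunit on the matrix side, was at 14.7, 14.2 and 17.4 CPM in hepatocyte-like cells and at 25.0, 26.1 and 24.2 in T cell-like cells. COX6B1, which faces the intermembrane space, was at 11.1, 8.25 and 11.3 against 18.5, 15.1 and 26.4, and COX8A at 2.42, 2.11 and 1.97 against 5.51, 3.48 and 6.15 CPM. All 3 were higher in T cell-like cells with no overlap. In complex V, the catalytic subunit ATP5F1B (27.6, 28.7 and 24.8 CPM in hepatocyte-like cells against 23.0, 27.1 and 23.1 in macrophage-like cells) overlapped between these classes. ATP5F1C, of the rotating central stalk, was lower in hepatocyte-like cells (24.6, 26.1 and 27.6 CPM against 38.9, 37.7 and 42.8).

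**Figure D2:**
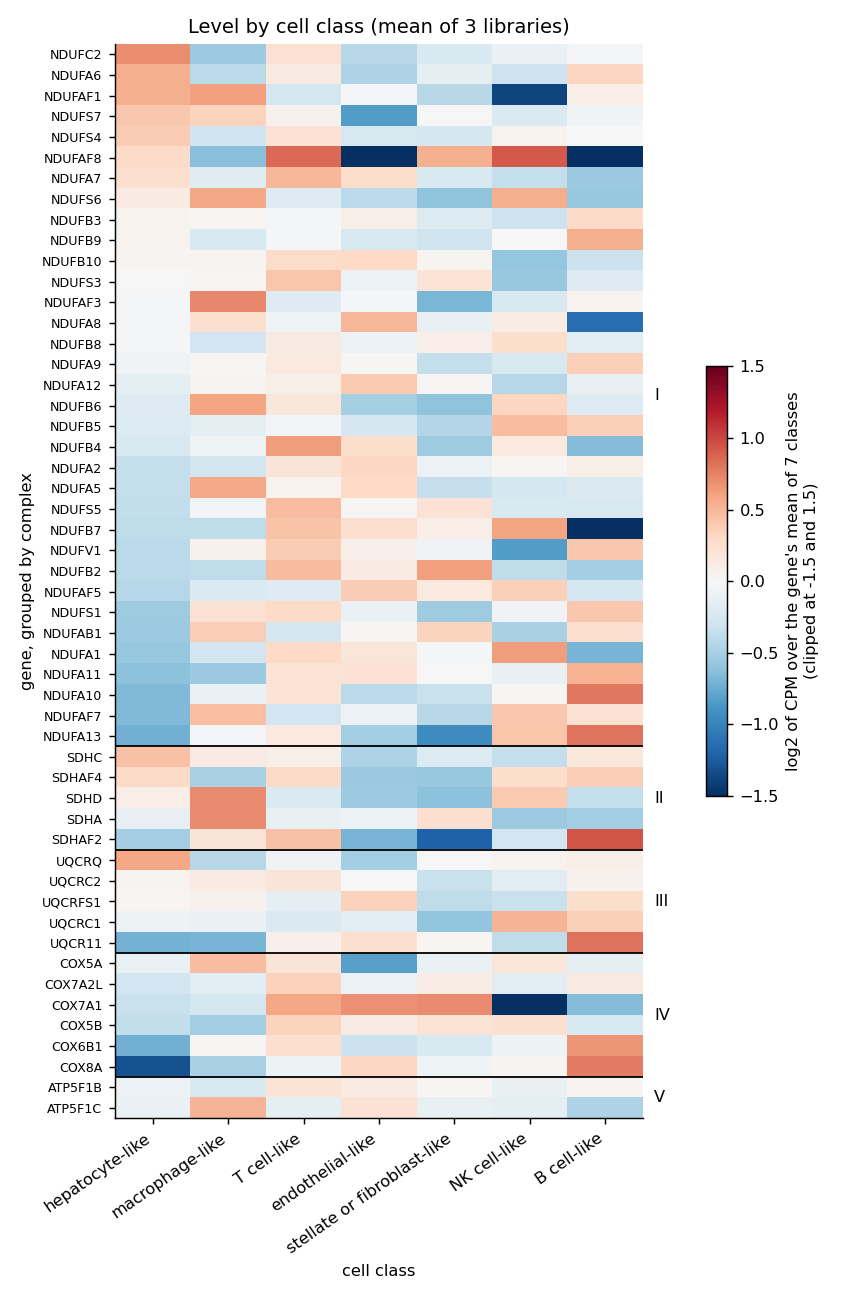
Each row is 1 of 52 of the genes with at least 50 UMIs and each column 1 of the 7 cell classes with at least 50 cells in every library. Colour gives log2 of the gene's CPM over its own mean of the classes, from the mean of the 3 libraries. NDUFC2, NDUFA6 and UQCRQ are red and COX8A and NDUFA13 are blue in the hepatocyte-like column.

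The comparison of NASH with Con sets goats with steatohepatitis on the HRDS diet against healthy goats on the LRDS diet. With 1 library each, disease, diet and library cannot be told apart in it. Most hepatocyte-like cells of Con lay in clusters 3 and 4 and most of those of NASH in clusters 1, 6 and 7, which are taken up again further on. In hepatocyte-like cells the sum of the 58 genes was 0.921 (0.904 to 0.938) times that of Con. Complex I had 896, 817 and 864 CPM, a ratio of 0.912 (0.891 to 0.933), and complex II had 225, 195 and 204 CPM, a ratio of 0.869 (0.829 to 0.910). Complex IV had 50.7, 45.1 and 49.1 CPM, a ratio of 0.889 (0.805 to 0.981). NASH was the lowest library for these 3 complexes. The intervals of complex III (141, 145 and 140.1 CPM, ratio 1.02, 0.967 to 1.08) and complex V (52.9, 55.3 and 52.9 CPM, ratio 1.04, 0.951 to 1.15) held 1. The complex II difference lay in its assembly factors, chiefly SDHAF4. Together these assembly factors had 146, 114 and 128 CPM, a ratio of 0.780 (0.735 to 0.828). The complex II subunits SDHA, SDHC and SDHD summed to 78.4, 81.1 and 75.7 CPM, a ratio of 1.03 (0.958 to 1.12). Within complex I the assembly factors had a ratio of 0.864 (0.812 to 0.918), the accessory subunits 0.918 (0.894 to 0.942) and the core subunits 0.945 (0.871 to 1.03). Without the 5 genes that have most UMIs, the sum of the others was 0.953 (0.930 to 0.976) times that of Con. Centred on the median gene of the hepatocyte-like cells, the sum of all 58 stood at 1.00.

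To pass as higher or lower, a gene needed a difference of 1.5-fold or more, an interval clear of 1 and at least 20 UMIs over both libraries. Of the 54 genes measured in hepatocyte-like cells, 0 were higher and 0 lower in NASH than in Con, beside 5.15% and 11.8% of all 13357 genes measured. At a lower limit of 0.32 on the log2 scale, 1 was higher, beside 9.03%, and 10 were lower, beside 21.3%, and at 2-fold none passed, beside 2.63% and 5.2%. With no minimum on the difference, 1 was higher and 16 were lower, beside 15.3% and 32.8% of all genes, so this lower share was near the background. The median log2 ratio of the 54 was -0.11, beside -0.13 over all genes, and 38 of them lay below 1. Ratios ran from 0.498 (0.226 to 1.06) for NDUFAF8, an assembly factor of complex I, to 1.33 (0.973 to 1.83) for SDHAF2, and both intervals held 1. In cells thinned to 1000 UMIs SDHAF2 passed as higher (2.53, 1.13 to 6.41, from 8 UMIs in Con and 29 in NASH) and NDUFS1 as lower (0.628, 0.408 to 0.963). With equal weight per cell, where intervals are too narrow, SDHAF2 (1.68, 1.23 to 2.33) passed as higher and UQCR11 (0.608, 0.466 to 0.793) as lower.

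Gene by gene, NDUFS4 had a ratio of 0.878 (0.837 to 0.921), NDUFAF5 of 0.874 (0.809 to 0.945) and SDHAF4 of 0.762 (0.717 to 0.810). For these well-counted genes the interval lay below 1 but the difference stayed under the 1.5-fold limit. Named after their values were seen, NDUFAF7, a complex I assembly factor, had 21.9, 15.0 and 18.1 CPM and a ratio of 0.687 (0.584 to 0.807), and NDUFB7, a membrane-arm subunit, had 9.26, 6.74 and 9.83 CPM and a ratio of 0.728 (0.569 to 0.932). COX6B1 was at 0.742 (0.593 to 0.927). The 1 gene with an interval above 1 was NDUFC2, also of the membrane arm, with 27.3, 35.7 and 34.3 CPM and a ratio of 1.31 (1.15 to 1.48). The intervals of SDHC (1.04, 0.932 to 1.16), UQCRC2 (1.06, 0.981 to 1.16), UQCRQ (1.03, 0.925 to 1.14), COX5B (0.967, 0.807 to 1.16), ATP5F1C (1.06, 0.926 to 1.22), ATP5F1B (1.04, 0.913 to 1.18), SDHD (0.930, 0.734 to 1.18), NDUFB2 (1.05, 0.732 to 1.503) and NDUFA10 (0.911, 0.814 to 1.02) held 1.

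**Figure D3:**
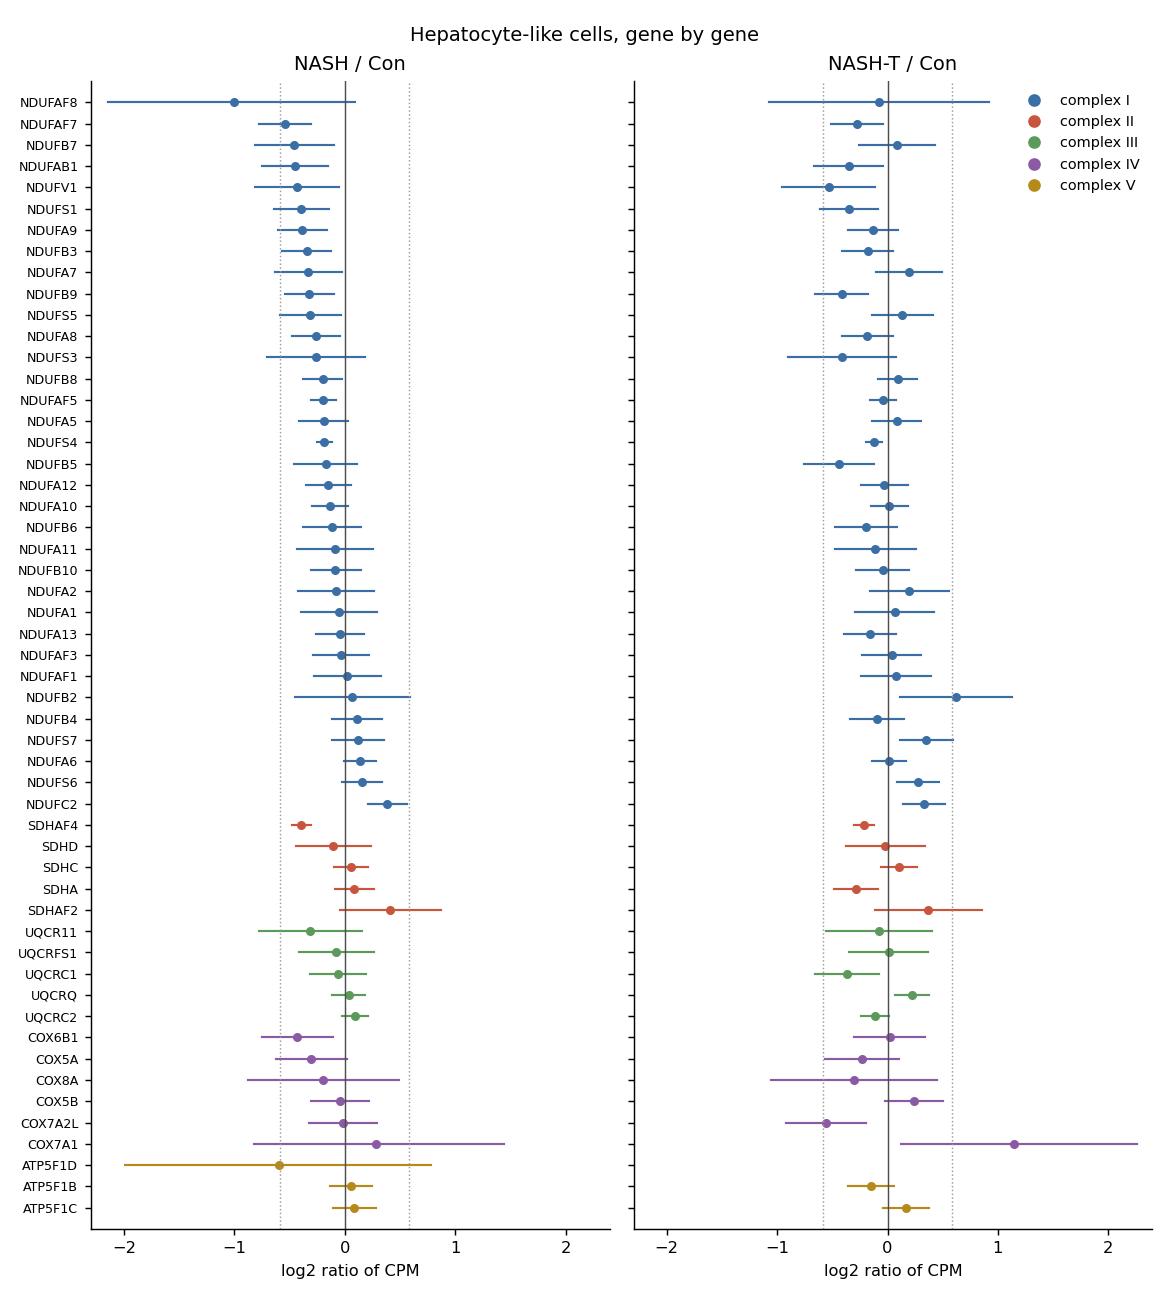
Log2 ratio of CPM (horizontal axis) of NASH over Con, left, and NASH-T over Con, right, in hepatocyte-like cells, for 53 of the genes measured in the first comparison, grouped and coloured by complex, with exact 95% intervals for counting error. Dotted lines mark 1.5-fold in either direction. Both panels use the same Con library. No gene passes the lines with its interval clear of 0 on the left, and NDUFB2 and COX7A1 do on the right.

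NASH-T against Con sets tolerant goats on the HRDS diet against healthy goats on the LRDS diet. Diet and library cannot be told apart in it. In NASH-T against Con, the hepatocyte-like sum had a ratio of 0.959 (0.940 to 0.978), complex I 0.964 (0.941 to 0.988) and the complex II assembly factors 0.875 (0.823 to 0.931). The core subunits of complex I had 72.2, 68.2 and 64.4 CPM and a ratio of 0.893 (0.817 to 0.975). Of 53 measured genes 2 were higher, beside 4.83% of all 13238 genes, and 0 were lower, beside 8.14%. The higher ones were NDUFB2, with 3.80, 3.97 and 5.83 CPM and a ratio of 1.53 (1.08 to 2.19), and COX7A1, the cytochrome oxidase subunit typical of heart and skeletal muscle, with 12, 20 and 28 UMIs, 0.829, 1.01 and 1.83 CPM and a ratio of 2.21 (1.09 to 4.78). NASH-T was the highest of the 3 libraries for both. In thinned cells neither passed, at ratios of 1.30 and 1.84, and COX7A1 did not pass with doublets kept (1.66) or with a finer clustering (1.97). At the limit of 0.32 on the log2 scale, 4 were higher, beside 8.36%, and 7 lower, beside 17.4%, and at 2-fold COX7A1 alone was higher, beside 2.36%, and 0 lower, beside 3.23%. With no minimum on the difference 6 were higher, beside 14.3%, and 12 lower, beside 28.6%. The median log2 ratio was -0.04, beside -0.10 over all genes.

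NASH-T against NASH sets tolerant goats against goats with steatohepatitis on the same HRDS diet. With 1 library each, outcome and library cannot be told apart in it. The sum had a ratio of 1.04 (1.02 to 1.06), complex I 1.06 (1.03 to 1.08), complex II 1.04 (0.995 to 1.09), complex III 0.968 (0.914 to 1.02), complex IV 1.09 (0.987 to 1.201) and complex V 0.956 (0.872 to 1.05). Of 53 measured genes 0 were higher and 0 lower, beside 8.46% and 4.92% of all 13341 genes. At the limit of 0.32 on the log2 scale, 5 were higher, beside 12.8%, and 3 lower, beside 10.2%, and at 2-fold none passed, beside 4.52% and 2.11%. With no minimum on the difference 14 were higher, beside 20.7%, and 6 lower, beside 19.4%. Among the latter, named after their values were seen, were COX7A2L, which helps complexes III and IV to join (10.7, 10.6 and 7.27 CPM, ratio 0.688, 0.542 to 0.871) and SDHA (ratio 0.775, 0.681 to 0.881), both lowest in NASH-T. COX6B1 had a ratio of 1.37 (1.096 to 1.70). COX7A2L did pass as lower in thinned cells (0.533, 0.285 to 0.957) and with equal weight per cell (0.607, 0.476 to 0.770). It also passed in the clusters with at least 50 cells in both libraries (0.607, 0.455 to 0.812). In these settings NDUFB5 also passed as lower, and NDUFA5, NDUFA7, NDUFB2 and COX7A1 as higher, each in 1 of them. The 3 comparisons share libraries pairwise, so they are not independent. Of the 54 genes with at least 20 UMIs over the 3 libraries together, 27 had their lowest hepatocyte-like level in NASH, beside 41.5% of all genes, 11 in Con, beside 22.6%, and 16 in NASH-T, beside 35.9%. The highest level was in Con for 26, beside 49.2% of all genes, in NASH for 8, beside 26.1%, and in NASH-T for 20, beside 24.7%.

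The hepatocyte-like cells of the 3 libraries came from different clusters. The NASH cells came mostly from clusters 1, 6 and 7 (1029, 1327 and 1314 of 4082), the Con cells from clusters 3 and 4 (1329 and 1166 of 2904) and the NASH-T cells from clusters 1, 3 and 4 (1571, 600 and 485 of 3152). Within NASH, the summed level was 1273 CPM (1246 to 1299.5) in cluster 1, 1286 (1259 to 1314) in cluster 6, led by UPP2 and FASN, and 1172 (1143 to 1200.0) in cluster 7, led by CYP7A1. Cluster 7 lay below both others. In the 4 clusters with at least 50 cells in both libraries, 1, 3, 4 and 9, the pooled ratio of NASH to Con was 0.949. Most of these NASH cells lay in cluster 1 and most Con cells in clusters 3 and 4, so pooling did not match the clusters. Cluster by cluster the ratio was 0.932 (0.851 to 1.02), 0.895 (0.809 to 0.988), 1.02 (0.892 to 1.16) and 0.975 (0.876 to 1.08). In the pooled clusters 3 genes of complex I were lower in NASH, beside 8.45% of all genes, and 0 higher, beside 4.92%. They were NDUFV1, the flavin-carrying core subunit that takes electrons from NADH (0.634, 0.429 to 0.919), NDUFAB1, the mitochondrial acyl carrier protein (0.643, 0.477 to 0.856), and NDUFAF7 (0.661, 0.527 to 0.823).

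Between clusters that carry markers of opposite ends of the liver lobule, no difference was detectable in the sum. Cluster 3, led by the periportal gene BHMT, and cluster 4, with the pericentral LGR5 among its leading genes, had summed levels in a ratio of 1.01 (0.977 to 1.04) in Con, 0.884 (0.751 to 1.04) in NASH, on 64 and 55 cells, and 1.00 (0.954 to 1.05) in NASH-T. Of 50 measured genes, 0 were higher and 0 lower in cluster 3 in both Con and NASH-T, beside 2.73% and 1.2% of all genes. The mitochondrially encoded genes were 1.17, 1.24 and 1.13 times as high in cluster 3 in Con, NASH and NASH-T.

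For NASH against Con and NASH-T against NASH, the class sum of the mitochondrially encoded partners of these complexes differed more than that of the nuclear-encoded genes. In these comparisons neither set had ratios on the same side of 1 in each of clusters 1, 3, 4 and 9. For NASH-T against Con the ratios of the 58 genes in these clusters were all below 1. In that order they were 0.953 (0.871 to 1.05), 0.948 (0.915 to 0.982), 0.953 (0.912 to 0.996) and 0.899 (0.818 to 0.989). The mitochondrially encoded ratios of NASH-T to Con were 0.726, 1.14, 1.19 and 0.758. In all hepatocyte-like cells together the 13 mitochondrial protein genes summed to 1000.2, 579 and 973 CPM, a ratio of NASH to Con of 0.579 (0.565 to 0.593) and of NASH-T to NASH of 1.68 (1.64 to 1.72), next to the nuclear-encoded 0.921 (0.904 to 0.938) and 1.04 (1.02 to 1.06). Of 12 mitochondrial genes measured, 11 were lower in NASH than in Con, beside 11.8% of all genes, and 11 higher in NASH-T than in NASH, beside 8.46%. Their median log2 ratios were -0.80 and 0.86. Without cluster 9, which is rich in these transcripts, 7 and 6 passed and the ratios were 0.670 (0.652 to 0.689) and 1.46 (1.42 to 1.501), and in thinned cells 7 and 9 passed. Cluster by cluster, the NASH to Con ratio was 0.466 (0.415 to 0.524) in cluster 1 and 0.532 (0.502 to 0.563) in cluster 9, but 1.76 (1.60 to 1.93) in cluster 3 and 1.67 (1.44 to 1.93) in cluster 4. NASH was thus the lower library in 2 of these clusters and the higher one in the other 2, where it had few cells (64 and 55). In cluster 1, where NASH was lower, Con had few cells (73). The NASH-T to NASH ratio was above 1 in clusters 1 (1.56) and 9 (1.42) and below it in clusters 3 (0.649) and 4 (0.711). For the 58 genes this ratio was 1.02, 1.06, 0.935 and 0.922 in clusters 1, 3, 4 and 9, with intervals that all held 1. ND4L (6.77, 2.26 and 6.49 CPM) and ND5 (14.8, 6.19 and 13.6 CPM), both of complex I, had the largest differences between NASH and Con. The 34 cytosolic ribosomal protein genes summed to 1669.6, 1284 and 2013 CPM. Of 32 measured, 5 were lower in NASH than in Con, beside 11.8% of all genes, and 22 higher in NASH-T than in NASH, beside 8.46%. The 60 mitochondrial ribosomal protein genes, nuclear-encoded too, summed to 1255, 1272 and 1241 CPM. In T cell-like cells the mitochondrially encoded sum was 4829, 6464 and 12763 CPM. All 12 measured mitochondrial genes were higher there in NASH-T than in Con, beside 4.06% of all genes, while the 58 genes had a ratio of 0.985 (0.940 to 1.03). The part of RNA quality or of free RNA in these values was not tested.

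**Figure D4:**
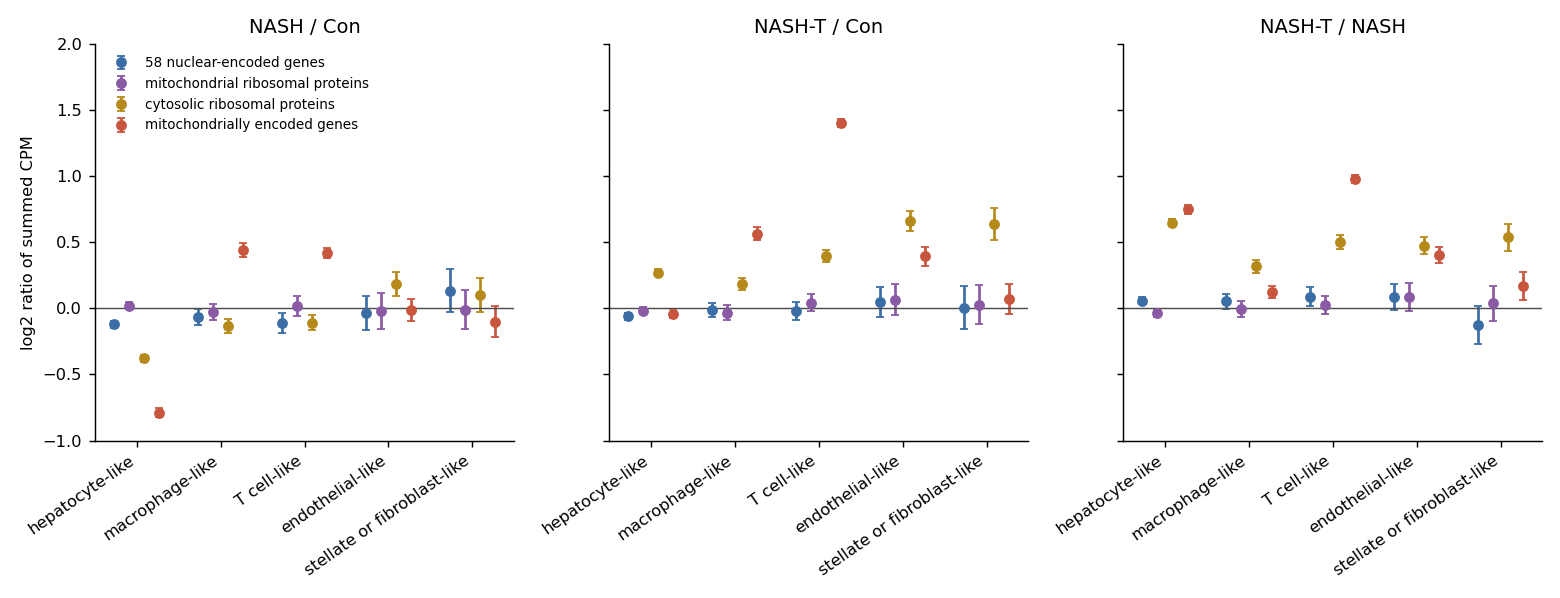
Log2 ratio of summed CPM (vertical axis) in 5 cell classes for 4 gene groups, with exact 95% intervals for counting error, in 3 comparisons that share libraries. The 58 nuclear-encoded genes and the mitochondrial ribosomal proteins stay within a ratio of 0.915 to 1.097 and 0.976 to 1.06, while the mitochondrially encoded genes have 0.579 in hepatocyte-like cells for NASH against Con and 2.64 (2.58 to 2.70) in T cell-like cells for NASH-T against Con.

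Most other genes of the pathway passed no limit in hepatocyte-like cells. In NASH against Con, 0 passed of 14 genes for other routes of electron entry, 5 further ATP synthase genes, 17 genes for cytochrome oxidase or complex III assembly, 7 further complex I assembly genes and 10 uncoupling, nucleotide exchange and antioxidant genes. Of 16 tricarboxylic acid cycle and pyruvate entry genes, IDH3A, a subunit of isocitrate dehydrogenase, was higher in NASH (6.70, 12.3 and 11.99 CPM, ratio 1.84, 1.45 to 2.35) and MPC1, which carries pyruvate into mitochondria, was lower (74.0, 42.6 and 80.3 CPM, ratio 0.576, 0.525 to 0.631). Of 14 regulators of mitochondrial biogenesis, PPRC1, a coactivator (9.05, 5.08 and 6.42 CPM, ratio 0.561, 0.429 to 0.733), and ESRRG, a nuclear receptor known to drive respiratory chain genes (22.4, 8.05 and 24.7 CPM, ratio 0.359, 0.296 to 0.436), were lower in NASH. Among all genes 5.15% were higher and 11.8% lower in this comparison, so the counts in these lists were near or below those shares. In NASH-T against NASH, MPC1 (1.88, 1.72 to 2.06) and ESRRG (3.07, 2.54 to 3.72) were higher, beside 8.46% of all genes. IDH3A was higher in NASH-T than in Con (1.79, 1.39 to 2.31), beside 4.83%.

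Within the hepatocyte-like cells, cluster 9 stood apart. It was led by the secreted-protein genes APOE, AHSG and VTN, held 322, 293 and 428 cells with a median of 937 UMIs over the 3 libraries, and had 9357, 4978 and 7088 CPM of mitochondrially encoded genes against 750.1, 503 and 734 in the other 5 hepatocyte-like clusters. The 58 genes summed to 1871, 1825 and 1683 CPM there against 1351, 1248 and 1295, ratios of 1.39 (1.29 to 1.49), 1.46 (1.35 to 1.58) and 1.30 (1.22 to 1.39). Of 51 measured genes, 9 were at least 1.5-fold higher in all 3 libraries, beside 4.29% of all genes, and 0 were lower, beside 0.115%. The cluster was drawn from these cells and the count is a description. Cytosolic ribosomal proteins were 3.91, 3.93 and 3.70 times as high and mitochondrial ribosomal proteins 1.09, 0.937 and 1.02 times as high in the same cells, and the part of their low depth was not tested.

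The genes higher in cluster 9 were all subunits, from complex I (NDUFA1, NDUFA13, NDUFB7, NDUFB10, NDUFS5 and NDUFS7), III (UQCR11) and IV (COX5B and COX6B1), most of them named after their values were seen. COX6B1 had 54.7, 38.3 and 33.1 CPM in cluster 9 against 9.82, 7.73 and 10.4 in the other clusters, ratios of 5.57 (3.42 to 8.70), 4.95 (2.58 to 8.73) and 3.17 (1.86 to 5.13). COX5B had 61.8, 61.8 and 57.4 CPM against 13.3, 13.4 and 15.8, and NDUFA13 71.3, 94.2 and 47.0 against 19.9, 19.5 and 18.1. These came from 13 to 33 UMIs of cluster 9 per library. Ratios below 1 in all 3 libraries were found for 4 genes: NDUFS4 (ratios 0.788, 0.851 and 0.890), NDUFAF5 (0.577, 0.825 and 0.608), SDHC (0.665, 0.359 and 0.826) and SDHD (0.789, 0.349 and 0.384). SDHD rested on 3, 1 and 2 UMIs of cluster 9, and its intervals all held 1. The intervals of NDUFS4 held 1 in NASH and NASH-T, those of SDHC in Con and NASH-T, and that of NDUFAF5 in NASH. The share of all genes below 1 in all 3 libraries was not counted. Without cluster 9 the comparisons between libraries gave 0, 2 and 0 genes and sums in ratios of 0.924, 0.959 and 1.04.

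**Figure D5:**
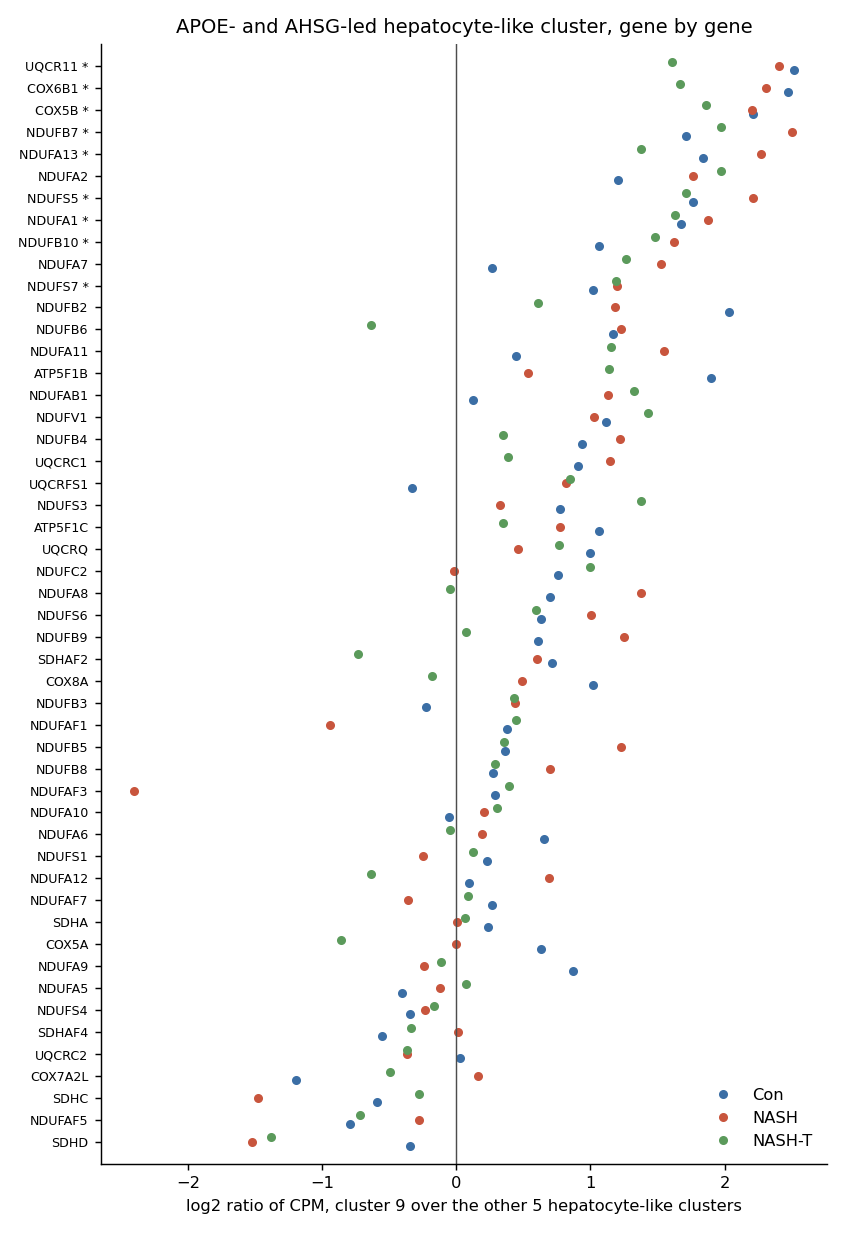
Log2 ratio of CPM (horizontal axis) of cluster 9 over the other 5 hepatocyte-like clusters for 50 of the 51 measured genes, with 1 point per library. Stars mark the 9 genes at least 1.5-fold higher with an interval above 1 in all 3 libraries. The points of UQCR11, COX6B1 and COX5B lie right of 0 and those of NDUFAF5 and SDHD left of 0 in all 3 libraries.

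In macrophage-like cells the sum of the 58 genes had ratios of 0.955 (0.918 to 0.994) for NASH against Con and 0.991 (0.956 to 1.03) for NASH-T against Con. Complex III had 134, 108 and 127 CPM and a ratio of 0.801 (0.699 to 0.917) for NASH against Con. Of 51 genes, 1 was higher (3.46% of all genes) and 2 lower (4.56%) in NASH than in Con. The lower ones were complex III subunits, UQCR11, the smallest of them, with 6.28, 2.41 and 5.71 CPM and a ratio of 0.384 (0.150 to 0.873), and UQCRFS1, the Rieske iron-sulfur protein, with 11.4, 5.73 and 9.89 CPM and a ratio of 0.504 (0.280 to 0.876). NASH was the lowest library for both. The higher one was NDUFB5, a membrane-arm subunit, with 10.6, 16.3 and 9.01 CPM and a ratio of 1.53 (1.01 to 2.33). In NASH-T against Con, 1 of 51 was higher (3.3% of all genes), NDUFB2, with 2.66, 4.82 and 6.37 CPM (ratio 2.397, 1.16 to 5.32), and 0 lower (5.92%). In NASH-T against NASH, UQCR11 was higher (2.37, 1.04 to 6.05, 1 gene, beside 4.26%) and NDUFB5 lower (0.553, 0.359 to 0.846, 1 gene, beside 5.65%). Each of these shares was below that of all genes. With doublets kept, NDUFB5 (1.32), UQCR11 (0.530) and UQCRFS1 (0.630) no longer passed for NASH against Con, nor did NDUFB5 (0.742) and UQCR11 (1.81) for NASH-T against NASH. The NDUFB5 ratio of NASH to Con moved to 3.57 in thinned cells, where it passed, and to 1.46 with a stricter cell filter (500 genes and 1000 UMIs), where it did not. Of the 36 results that passed in the 5 classes, 26 still passed with doublets kept, 27 with the stricter filter and 6 in thinned cells, in which 23 reached 20 UMIs. The mitochondrially encoded sum was 1310.3, 1779 and 1936 CPM in these cells.

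In T cell-like cells, 1 of 50 genes was higher (3.41% of all genes) and 2 were lower (3.76%) in NASH than in Con. NDUFB10, of the membrane arm, was the higher one, with 18.0, 30.2 and 20.2 CPM (ratio 1.68, 1.07 to 2.64). NDUFS6, a zinc-binding subunit, had 29.5, 16.3 and 29.3 CPM (ratio 0.551, 0.338 to 0.877), and UQCRC1, the other core protein of complex III, had 19.0, 10.5 and 9.40 CPM (ratio 0.549, 0.295 to 0.987). NDUFS6 was low in NASH alone and UQCRC1 in both libraries from the HRDS diet. UQCRC1 was also the 1 gene of 51 that was lower in NASH-T than in Con (0.494, 0.288 to 0.835, beside 3.91% of all genes), with 0 higher (4.06%). In NASH-T against NASH, 4 of 51 were higher (4.73% of all genes) and 0 lower (3.16%). Besides NDUFS6 (1.80, 1.16 to 2.88) they were COX6B1 (18.5, 15.1 and 26.4 CPM, ratio 1.75, 1.104 to 2.85), NDUFS5 (24.0, 18.6 and 30.7 CPM, ratio 1.65, 1.09 to 2.57) and NDUFB8 (37.0, 29.0 and 43.8 CPM, ratio 1.51, 1.08 to 2.14), each lowest in NASH. With the stricter cell filter UQCRC1 (0.596) and NDUFB10 (1.21) no longer passed for NASH against Con, nor did NDUFS5 (1.76) and NDUFS6 (1.54) for NASH-T against NASH.

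Endothelial-like cells had 684496, 950212 and 1997130 UMIs, so that 36, 46 and 48 genes were measured in NASH against Con, NASH-T against Con and NASH-T against NASH. NASH had 1 gene higher (4.09% of all genes) and 2 lower (5.88%) than Con. NDUFB4, of the membrane arm, had 19.0, 38.9 and 23.5 CPM (ratio 2.05, 1.07 to 4.20), SDHA had 45.3, 14.7 and 30.04 CPM (ratio 0.325, 0.160 to 0.630), and UQCRC2 had 92.0, 50.5 and 54.6 CPM (ratio 0.549, 0.369 to 0.812). Con was the highest library for both SDHA and UQCRC2. The 5 complex III genes together had 156, 95.8 and 112 CPM, ratios to Con of 0.613 (0.458 to 0.818) and 0.718 (0.567 to 0.912). In thinned cells the SDHA ratio moved to 0.663.

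NASH-T endothelial-like cells had 4 genes higher (5.62% of all genes) and 2 lower (5.16%) than Con. NDUFA2 had 8.77, 10.5 and 23.0 CPM (ratio 2.63, 1.12 to 7.53), NDUFA1 had 7.30, 17.9 and 19.0 (2.60, 1.02 to 8.48), COX5B had 13.1, 23.2 and 28.5 (2.17, 1.07 to 4.99) and ATP5F1C had 20.5, 36.8 and 40.6 (1.98, 1.12 to 3.79). Con was lowest for all 4, from 5 to 14 UMIs. The lower ones were UQCRC2 (0.593, 0.431 to 0.822) and NDUFS1, an iron-sulfur core subunit (27.8, 21.0 and 14.0 CPM, ratio 0.505, 0.272 to 0.957, and 0.235 in thinned cells). Complex IV had 46.7, 58.9 and 77.1 CPM, a ratio of 1.65 (1.12 to 2.50) for NASH-T against Con. In NASH-T against NASH, 4 were higher (5.01% of all genes) and 1 lower (3.33%). NDUFA2 (2.19, 1.09 to 4.86), NDUFS5 (14.6, 12.6 and 26.5 CPM, ratio 2.10, 1.11 to 4.32), SDHA (2.04, 1.13 to 3.95) and UQCRQ (21.9, 15.8 and 28.5 CPM, ratio 1.81, 1.01 to 3.44) were higher, and NDUFB4 was lower (0.604, 0.385 to 0.956). With doublets kept NDUFS1 (0.562) and NDUFA1 (2.02) no longer passed for NASH-T against Con.

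In stellate or fibroblast-like cells, with 432471 to 668983 UMIs, 24, 19 and 29 genes were measured in the same 3 comparisons. COX5B had 2, 20 and 22 UMIs, or 4.62, 29.9 and 34.2 CPM, and was the 1 gene higher in NASH than in Con (6.46, 1.57 to 57.0, beside 6.41% of all genes) and the 1 higher in NASH-T than in Con (7.40, 1.82 to 64.9, beside 4.82%). Con was far below the other libraries, but on 2 UMIs. No gene was lower in NASH than in Con (0 of 24, beside 3.07%). In NASH-T against Con, 1 of 19 was lower, beside 3.36%. In NASH-T against NASH, 1 gene was higher (3.67% of all genes), ATP5F1B (25.4, 20.9 and 42.0 CPM, ratio 2.01, 1.02 to 4.14, and 1.39 with doublets kept, where it did not pass). A further 2 of 29 were lower, beside 5.19%, among them NDUFA8 (16.2, 29.9 and 10.9 CPM, ratio 0.364, 0.130 to 0.896). In T cell-, endothelial- and stellate or fibroblast-like cells each count lay within 3 genes of the number that the share of all genes would give.

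Paralogous forms of complex IV subunits could be compared for 1 pair. COX6B2, the form known from testis, had 8 UMIs, of which 4 lay in T cell-like, 2 in NK cell-like and 2 in hepatocyte-like cells. It made up 2.86% (0.784 to 7.15, exact Clopper-Pearson interval) of the COX6B1 and COX6B2 UMIs in T cell-like cells and 0.401% (0.0486 to 1.44) in hepatocyte-like cells, and the intervals overlapped. COX6A2, a muscle form, had 1 UMI, in a NASH-T macrophage-like cell. COX7A1 UMIs were found in 0.148%, 0.0776% and 0.170% of hepatocyte-like cells thinned to 1000 UMIs, and in 0.379%, 0.465% and 0.761% of unthinned ones, which had medians of 4178, 3859.5 and 4017.5 UMIs. In NK cell-like cells (medians 1509.5, 1390.5 and 1498 UMIs), 0 of 229, 103 and 284 thinned cells had a COX7A1 UMI. At that depth this allows shares of cells with a UMI, not of cells expressing the gene, of up to 1.31%, 2.91% and 1.06%. In endothelial-like cells the gene was found in 1, 0 and 10 of 359, 550 and 1018 unthinned cells.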

How the data were processed

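Single cells of 3 pooled goat liver libraries were measured by 10x Genomics 3′ sequencing. The deposited matrices hold raw UMI counts per gene and barcode, made by the authors with Cell Ranger 7.0.0 per the submitters' processing notes. Neither the genome build nor the use of intronic reads is stated (not given in the sources used here). Of 27271 rows, 9958 carry an identifier only and hold 12.984% of UMIs.

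Barcodes with at least 200 genes, 500 UMIs and at most 20% mitochondrial UMIs were kept, which removed 1, 0 and 2. Scrublet in scanpy 1.11.5, at an expected rate of 0.06, marked 284, 342 and 459 doublets (3.79%, 3.92% and 4.90%), which were removed. Cells were clustered from 2000 variable genes without the 58, with 30 principal components, 15 neighbours and Leiden (leidenalg 0.10.2) at resolution 0.8. Clusters were named from 20 marker sets and only with at least 3 markers detected at 2-fold, and 2 clusters stayed unnamed. Names were rebuilt here and may differ from the authors'. Counts were summed per class and library with numpy 2.4.6, scipy 1.17.1 and pandas 2.3.3. The steps that count genes were tested on simulated data.

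The genes named were, for each complex, the 2 with most UMIs, every gene past the limits in hepatocyte-like cells, up to 3 per direction and comparison in the next 4 largest classes, the paralogs, the 5 with the largest ratio of highest to median class, and up to 2 per direction of each further list. All other names were chosen after their values were seen, also where their paragraph does not mark it. Among these are NDUFB8, NDUFAF8, COX8A, NDUFV1, NDUFAB1, NDUFA12, NDUFA5 and NDUFA7. Of the 58 genes, 1 enters the sums and counts but is not reported by name and not drawn here. The 58 genes and all lists were chosen with earlier results of these data known. Alternatives changed the cell filter, doublet removal, depth, scaling, UMI minimum, clustering, weighting and fold limit.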

Additional observations from a re-analysis of the deposited data

How the results depend on the processing

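No paired analysis was possible because each group is 1 library. Each value was recomputed with 1 choice changed at a time. In hepatocyte-like cells 0, 2 and 0 genes passed for NASH against Con, NASH-T against Con and NASH-T against NASH, beside 16.9%, 12.96% and 13.4% of all genes, and over the 5 classes 10, 12 and 14, beside 10.9%, 10.1% and 10.0%. Shares of all genes called in the same way follow each count. In cells thinned to 1000 UMIs the hepatocyte-like counts were 2, 1 and 3 (14.2%, 10.5% and 11.5%) and the 5-class counts 6, 7 and 8 (9.04%, 8.38% and 8.42%), with fewer UMIs behind each gene. For NASH-T against Con in thinned cells, neither NDUFB2 nor COX7A1 passed. The single gene was NDUFA12, which passed as lower (0.639, 0.437 to 0.930) and had not passed before thinning (0.980, 0.845 to 1.14). In clusters filled by both libraries the hepatocyte-like counts were 3 for NASH against Con (13.4%) and 3 for NASH-T against NASH (10.9%). With equal weight per cell, where intervals are too narrow, they were 2 and 2 for the same comparisons (20.8% and 18.2%) and the 5-class counts were 18, 20 and 24 (13.4%, 12.8% and 12.6%). A limit of 0.32 on the log2 scale gave 11, 11 and 8 in hepatocyte-like cells (30.4%, 25.7% and 23.0%) and 25, 22 and 27 over the 5 classes (18.2%, 17.4% and 16.1%). A limit of 2-fold left 1 for NASH-T against Con in hepatocyte-like cells (5.59%), and 4 for NASH against Con (5.31%) and 7 for NASH-T against NASH (5.06%) over the 5 classes. A minimum of 100 UMIs left 1, 2 and 3 over the 5 classes (9.63%, 8.76% and 8.44%) and 1, NDUFB2, for NASH-T against Con in hepatocyte-like cells (11.2%), as did a clustering at resolution 1.2 (12.85%). Cells with at least 500 genes and 1000 UMIs gave 6 for NASH against Con over the 5 classes (10.96%).

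The ratio of summed levels in hepatocyte-like cells moved from 0.921 to 1.00 for NASH against Con and from 0.959 to 1.03 for NASH-T against Con when centred on the median gene, since the median gene was itself below 1. In clusters filled by both libraries it was 0.949 for NASH against Con and 1.01 for NASH-T against NASH, and in thinned cells 0.980 for NASH-T against Con and 1.07 for NASH-T against NASH. The hepatocyte-like over macrophage-like sum turned from 0.988 to 1.02 without the 50 genes with most UMIs, and the hepatocyte-like over T cell-like sum moved from 0.898 to 0.940 with this change, 0.939 in thinned cells and 0.929 with the stricter cell filter. Leaving those 50 genes out of the total gave complexes I to V 1018, 246, 168, 57.2 and 63.6 CPM in hepatocyte-like cells, by construction higher than the 859, 208, 142, 48.3 and 53.7 CPM with them, and thinned cells gave complex IV 51.8 CPM. Unthinned cells held a COX7A1 UMI in 0.379%, 0.465% and 0.761%. Of the mitochondrially encoded genes, 7 were lower in NASH than in Con in thinned cells and 7 without cluster 9, against 11, and 6 were higher in NASH-T than in NASH without cluster 9, against 11. Leaving out cluster 9 and taking these sums cluster by cluster were chosen after seeing the data. Where no cause is named, the cause was not tested. Among 36 ratios of single genes, 5 moved, all in thinned cells, among them NDUFB5 for NASH against Con in macrophage-like cells (3.57) and NDUFA8 for NASH-T against NASH in stellate or fibroblast-like cells (0.108), and 0 turned. With 1 library per group, depth limits what can be seen to differences beyond the printed intervals, and in stellate or fibroblast-like cells fewer than 30 of the 58 genes reached 20 UMIs.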
